A study of Mus musculus with 4 samples.

Results

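*Hal*, *Ntn4* and *Usp44* lie within 369.3 kb of each other on mouse chromosome 10, and all 3 were lower in both Foxa1/2cKO samples than in both control samples. They are described here together with 6 neighbours, *Nedd1*, *Cdk17*, *Lta4h*, *Metap2*, *Vezt* and *Nr2c1*, which gives 9 of the 24421 genes listed. The 9 genes lie in a window of mm10 chromosome 10 that runs from *Nedd1*, at 92684746, to *Ndufa12*, at 94221443. *Hal*, *Ntn4* and *Usp44* were chosen by their lower FPKM in both Foxa1/2cKO samples, so their differences are given as a description and without a test. The 6 neighbours are there by position, and they and the other 13 listed genes of the window could be tested.

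RNA was sequenced from CD69+DP thymocytes, which are CD4+CD8+ cells that have begun to receive a TCR signal in positive selection. The cells were FACS sorted from the thymus of mice 6 weeks of age, with 2 samples from control mice and 2 from Foxa1/2cKO mice. Every mouse carried both floxed genes, *Foxa1* fl/fl and *Foxa2* fl/fl, on a background backcrossed to C57BL/6. Foxa1/2cKO mice carried the CD4Cre transgene as well and control mice did not, so that deletion begins only once thymocytes switch on the *Cd4* promoter, and any effect of the transgene itself cannot be told apart from loss of the floxed genes. Each sample came from its own sort of different mice, with 2 mice of each genotype per sort, and whether their cells were pooled is not stated.

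Neither *Foxa1* nor *Foxa2* was above 0 in any sample, of either genotype, which leaves the deletion unchecked by these values. Levels are in FPKM, the fragments on a gene divided by its length and by the depth of the sample, and their whole steps gave 10389203 to 14471886 reads per sample. All 9 genes of the CD69+DP marker list were above 0, with *Cd4* between 341.9 and 445.7 FPKM and *Cd69* between 103.0 and 121.0 FPKM. One of these 9 genes had an unadjusted p under 0.05, *Ptcra* at 11.2, 11.9, 7.44 and 3.23 FPKM in control 1, control 2, Foxa1/2cKO 1 and Foxa1/2cKO 2, named after its values were seen. Foxa1/2cKO 2 stood apart from the other 3 samples on the first principal component, which held 65.2% of the variance. The SD over genes of the log2 difference between the 2 Foxa1/2cKO samples was 0.40, against 0.20 between the 2 controls. Each mean below is given ± SD of 2 samples. In sorted cells, fewer cells expressing a gene and less RNA of it per cell cannot be told apart.

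Foxa1 and Foxa2 are forkhead transcription factors that can open closed chromatin at their binding sites. Neighbouring genes can share enhancers and chromatin domains, and genes lying side by side can also differ in the cell types that use them. *Usp44* encodes a deubiquitinase that removes ubiquitin from Cdc20 in the spindle checkpoint and from histone H2B, *Ntn4* encodes netrin-4, a secreted protein of basement membranes that binds laminins, and *Hal* encodes histidine ammonia-lyase, which begins the breakdown of histidine in liver and skin.

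Promoter sequence bears on a gene that differs after loss of a DNA-binding factor. RefSeq promoters of GRCm38.p6, the same assembly as mm10, were matched for 6 of the 9 genes, *Lta4h*, *Hal*, *Ntn4*, *Metap2*, *Vezt* and *Nr2c1*. No promoter was available for *Usp44*, *Cdk17* or *Nedd1*. The 250 bases before the transcription start were searched on both strands for 8 words of the forkhead core, TGTTT followed by AC, AT, GC or GT and TATTT followed by the same 4 endings, which differ from each other in at most 3 bases. *Hal* and its upstream neighbour *Lta4h* are shown because they lie 3.89 kb apart on the same strand and only the first of them was picked as lower. Capitals mark matches to the words. Hal is chr10:93488518-93488767 and Lta4h is chr10:93453146-93453395, both on the plus strand.
Hal: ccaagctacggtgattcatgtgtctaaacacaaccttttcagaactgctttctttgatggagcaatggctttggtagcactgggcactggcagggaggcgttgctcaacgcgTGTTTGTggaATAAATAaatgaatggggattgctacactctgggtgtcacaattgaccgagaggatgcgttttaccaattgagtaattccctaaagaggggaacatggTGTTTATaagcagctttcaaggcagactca
Lta4h: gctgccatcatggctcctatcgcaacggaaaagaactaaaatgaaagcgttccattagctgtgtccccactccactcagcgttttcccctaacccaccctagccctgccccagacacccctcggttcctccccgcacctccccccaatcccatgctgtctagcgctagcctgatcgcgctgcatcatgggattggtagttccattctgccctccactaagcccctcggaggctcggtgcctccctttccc

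The *Hal* promoter held 3 matches. TGTTTGT began 138 bases and TGTTTAT began 30 bases before the start, and TATTTAT lay on the minus strand between 128 and 122 bases before it. *Lta4h*, *Ntn4*, *Vezt* and *Nr2c1* had no match in these 250 bases. The *Ntn4* start used lies 368 bases inside the annotated gene, so the bases before its annotated start were not searched. *Metap2* had 2, in a sequence before an alternative start that lies 5891 bases inside the annotated gene. At least 1 of the 8 words was found in 24.9% of the 32851 promoters of the same length, and TGTTTAC alone in 3.17%. The promoters of other listed genes of the window were searched as well. *Snrpf*, whose groups overlapped (log2 fold change -0.04), had 2, including TGTTTAC, which *Hal* lacked. *Gm17745*, with overlapping groups, also had 2, including TGTTTAC. *4933408J17Rik*, higher in both Foxa1/2cKO samples, had 1, and *Gm15915*, lower in both, had 4. *Gm17745*, *4933408J17Rik* and *Gm15915* had 11 reads or fewer in every sample. *Elk3*, *Amdhd1*, *Ccdc38*, *Fgd6* and *Ndufa12* had none. A match describes these letters and does not show binding.

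*Usp44* (chromosome 10, 93831555 to 93858088, plus strand) had 3.71 and 3.22 FPKM in the controls, and only 0.983 and 0.615 FPKM were left in Foxa1/2cKO 1 and Foxa1/2cKO 2. These values rested on 220, 173, 42 and 27 reads. Both Foxa1/2cKO samples were below both controls, and by a wide margin. The mean fell from 3.47 ± 0.349 to 0.799 ± 0.260 FPKM, a ratio of 0.230. Reads summed over each group and scaled to depth were 4.37-fold lower in Foxa1/2cKO, with an exact 95% interval of 3.37 to 5.73 that covers counting error only. On log2(FPKM + 1), a scale that understates the change of low genes, the difference was -1.32.

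*Ntn4* (93640681 to 93747207, plus strand) had 0.831 and 0.794 FPKM in the controls, from 30 and 26 reads. In Foxa1/2cKO 1 it had 0.0384 FPKM, which was a single read, and in Foxa1/2cKO 2 it was listed at 0, where a count of 0 allows up to 0.112 FPKM at 3 reads. The 2 controls were close to each other, and both Foxa1/2cKO samples were near 0. The ratio of summed reads, scaled to depth, was 0.0233 with an exact 95% interval of 0.000579 to 0.135. The group means were 0.813 ± 0.0262 and 0.0192 ± 0.0272 FPKM.

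*Hal* (93488768 to 93519304, plus strand) had 0.606 and 0.748 FPKM in control 1 and control 2 and 0.201 and 0.261 FPKM in Foxa1/2cKO 1 and Foxa1/2cKO 2. The reads were 25, 28, 6 and 8. The groups did not overlap, but the counting intervals of the single samples did, since 6 reads allow up to 0.439 FPKM and 25 reads go down to 0.392 FPKM. The mean was 0.677 ± 0.101 FPKM in control and 0.231 ± 0.0424 in Foxa1/2cKO, and the summed reads were 2.90-fold lower, with an exact 95% interval of 1.59 to 5.67. All 3 genes were thus lower in 2 of 2 Foxa1/2cKO samples, which was the reason they were picked. The same held for 17.8% of all genes tested, those with at least 1 FPKM in at least 2 samples. *Usp44* reached that level, and *Hal* and *Ntn4* did not. Their depth differed widely: *Usp44* had 173 or more reads in each control, and *Hal* and *Ntn4* had 30 or fewer.

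**Figure D1:**
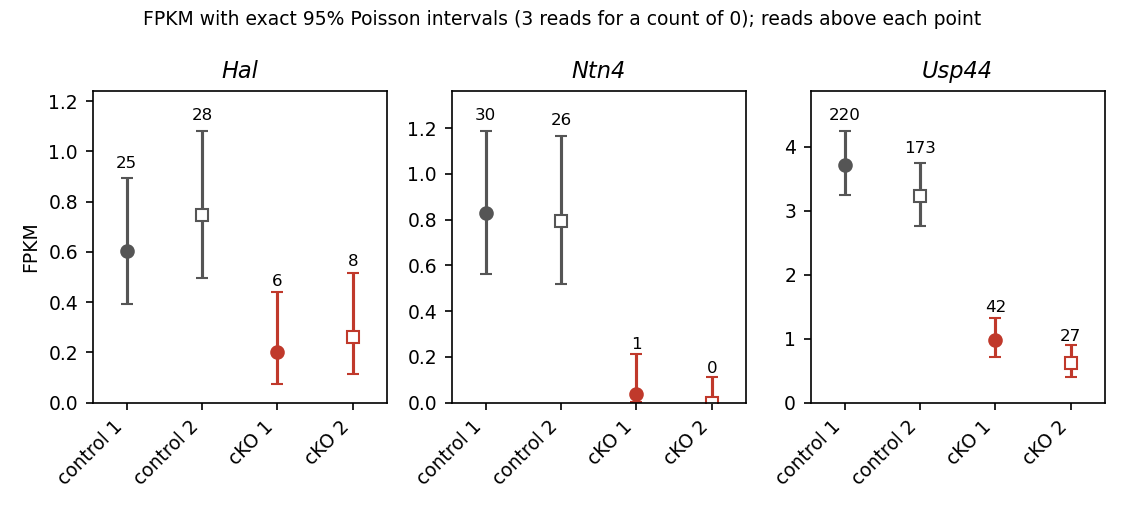
FPKM of *Hal*, *Ntn4* and *Usp44* in each of the 4 samples (grey, control; red, Foxa1/2cKO, written cKO on the axis), with exact 95% Poisson intervals (for the count of 0, a line up to 3 reads) and the number of reads above each point. *Ntn4* had 30 and 26 reads in control and 1 and 0 in Foxa1/2cKO, and the intervals of the 2 groups do not meet for *Ntn4* or *Usp44* but do for *Hal*.

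A ratio of 0.342 made *Hal* the least lowered of the 3, and among window genes with at least 10 reads in each control the next was *Metap2*, with a ratio of 0.907. Below that depth, *Gm8580*, with 3 and 1 reads in the controls, and *Mir7688*, with 1 and 0, had 0 reads in Foxa1/2cKO. *Gm15915* had a ratio of 0.374 and *Gm17745* of 0.782, from 8 reads or fewer in any sample. The ratios of *Amdhd1*, *Ccdc38*, *4933408J17Rik* and *Mir1931* were 5.51, 1.69, 1.48 and 1.26. Over all chromosomes, 30 of 11570 genes with at least 10 reads in each control (0.259%) were at least 2-fold lower in both Foxa1/2cKO samples than in both controls, a count that uses the contrast by which the 3 genes were picked. The 30 genes lay on 13 chromosomes. Apart from the 3 picked genes, chromosome 10 held 3 of them, and the most on any other chromosome was 5. The 3 on chromosome 10, *Sash1*, *Gm6251* and *Efna2*, lay 85.1, 73.6 and 13.7 Mb before *Usp44*. Of the 30, 7 were within 1 Mb of another, and 4 of these 7 were elsewhere, named after their values were seen. These were *Sertad4* with *Camk1g*, 0.491 Mb apart, and *Creb3l1* with *Chst1*, 0.575 Mb apart. Their gaps were wider than the 121.4 kb between *Hal* and *Ntn4* and the 84.3 kb between *Ntn4* and *Usp44*. The share of all genes with such a neighbour was not computed. In the opposite direction 4 of 11129 genes (0.0359%) were at least 2-fold higher, none of them in the window.

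**Figure D2:**
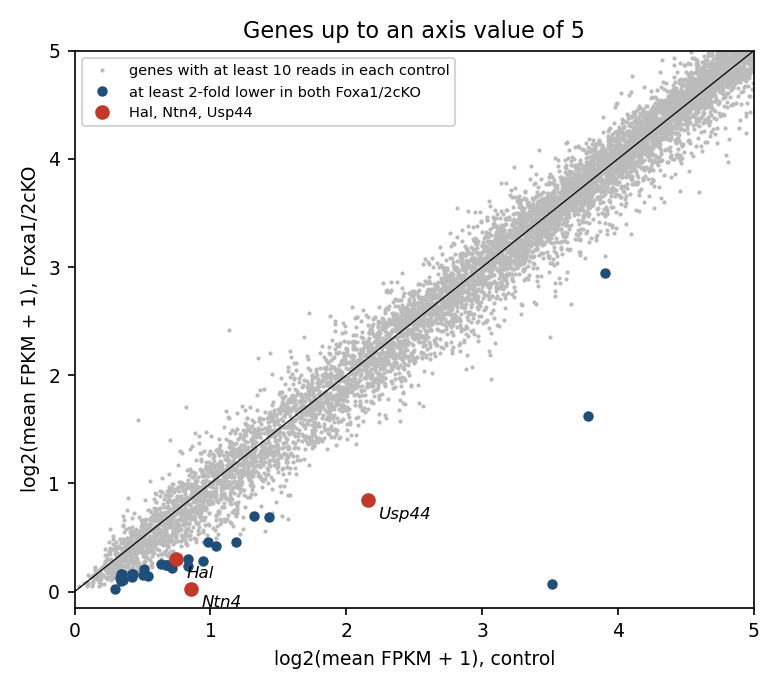
Mean FPKM in Foxa1/2cKO against control on a log2(FPKM + 1) scale, cut at an axis value of 5, for genes with at least 10 reads in each control (grey). Blue and red points are the 30 genes at least 2-fold lower in both Foxa1/2cKO samples, with *Hal*, *Ntn4* and *Usp44* in red, and most of the 30 lie at the low end of both axes.

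Genes that lie between *Hal* and *Ntn4* were not lower. *Hal* and *Ntn4* are 121.4 kb apart, and *Ntn4* and *Usp44* 84.3 kb. Between *Hal* and *Ntn4* lie *Amdhd1*, which encodes a later enzyme of histidine breakdown, *Ccdc38*, the splicing gene *Snrpf* and the long noncoding RNA *4933408J17Rik*. *Amdhd1* had 2, 0, 6 and 2 reads in control 1, control 2, Foxa1/2cKO 1 and Foxa1/2cKO 2, and *Ccdc38* had 9, 8, 12 and 10 reads. *Snrpf*, with 391 to 584 reads, had overlapping groups and a log2 fold change of -0.04 (SE 0.14). None of these 4 genes was lower in both Foxa1/2cKO samples. *Ccdc38* and *Snrpf* overlap by 1299 bases on opposite strands. The authors counted reads with HTSeq in union mode, but its strand setting and the step that made the FPKM are not given in the sources used here.

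Within *Ntn4* itself lie the pseudogene *Gm8580* and the antisense RNA *Gm15915*, both on the minus strand. *Gm8580* had 3, 1, 0 and 0 reads and *Gm15915* had 4, 3, 1 and 1 reads in the same order of samples. Both were low in Foxa1/2cKO, as *Ntn4* was. The authors made their exon counts without regard to strand, and the setting of the gene counting is not given in the sources used here. Reads of *Ntn4* and of these opposite-strand genes therefore cannot be told apart. *Usp44* ends 400 bases from the end of *Metap2*, which is read from the other strand. Stretches of 50 bases held by another annotated gene made up 0.610% of the longest *Hal* transcript, 0.668% of *Ntn4* and none of *Usp44*.

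**Figure D3:**
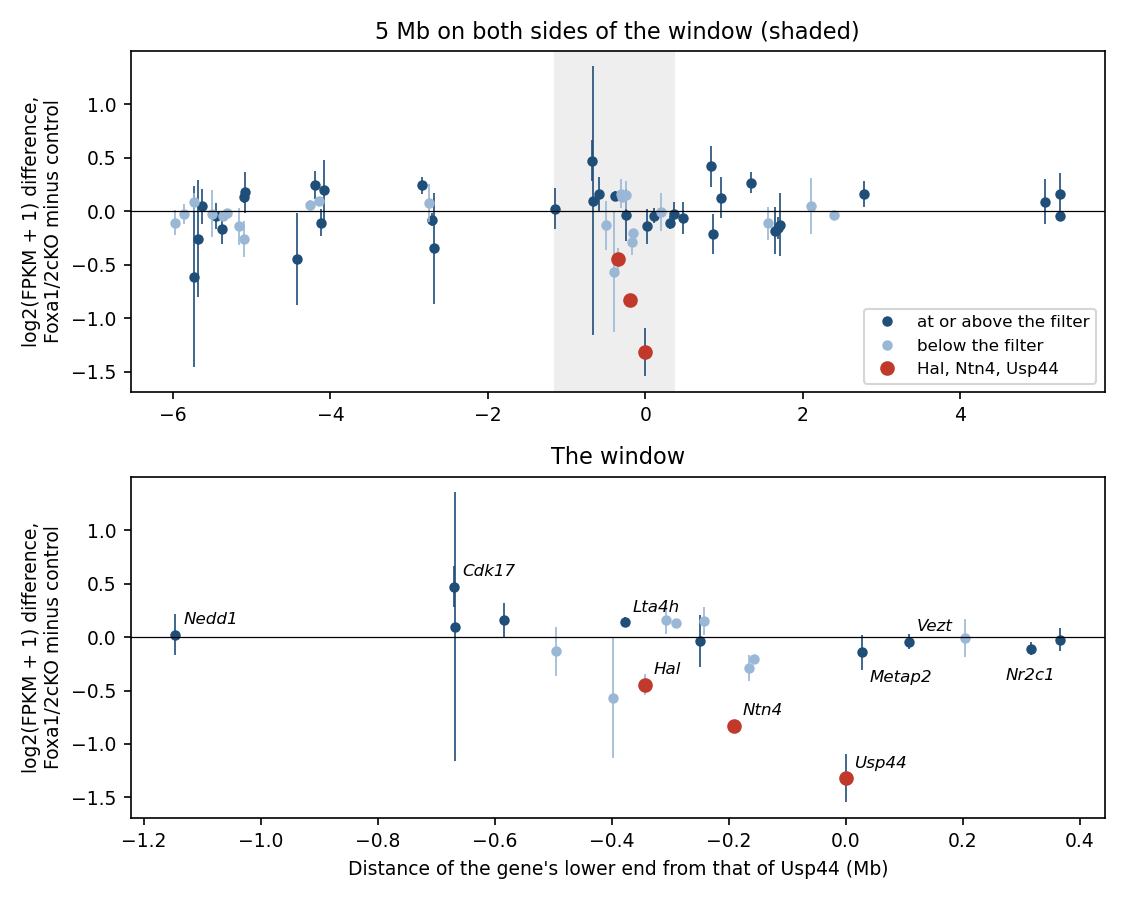
Difference in log2(FPKM + 1), mean of Foxa1/2cKO minus mean of control, against the distance in Mb of each gene from *Usp44*, with 5 Mb on either side of the window (top, window shaded) and the window alone (bottom). Points are genes above 0 in at least 1 sample, dark where FPKM was at least 1 in at least 2 samples, and lines join the smallest and largest difference between a Foxa1/2cKO and a control sample. *Usp44* at -1.32 is the lowest point, followed by *Ntn4* at -0.83, and *Cdk17* at 0.47 is the highest.

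Apart from the 3 picked genes, 10 of the 19 listed genes of the window passed the filter of at least 1 FPKM in at least 2 samples and were tested with limma in a fit over all 10776 such genes. One of the 10, *Cdk17*, had an unadjusted p under 0.05, against 4.55% of all genes tested. None had a Benjamini-Hochberg adjusted p under 0.05, which 0.00928% of all genes had, and limma-voom on the recovered reads gave 1 of the 10 at an unadjusted p under 0.05 and 0 adjusted calls over all genes. The median log2 fold change of the 10 was -0.00035, beside 0.005 over all genes tested. Groups did not overlap in 3 of the 10, *Nr2c1* lower and *Cdk17* and *Lta4h* higher, beside 36.7% of all genes.

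*Cdk17* (93160875 to 93267071, plus strand), a PCTAIRE kinase activated by cyclin Y, had 65.1 and 59.0 FPKM in the controls and 79.4 and 93.9 FPKM in Foxa1/2cKO 1 and Foxa1/2cKO 2. Both Foxa1/2cKO samples were above both controls. The log2 fold change was 0.47 (SE 0.12), with an unadjusted p of 0.0124 and an adjusted p of 0.863, so it did not pass the adjusted threshold. The unadjusted p was 0.0514 without control 1 and 0.12 without control 2. *Elk3*, an ETS factor gene on the minus strand that overlaps the end of *Cdk17*, had 25.7, 23.9, 25.7 and 30.1 FPKM, a log2 fold change of 0.16 (SE 0.11) and an unadjusted p of 0.221 (0.0109 without Foxa1/2cKO 1). Of the other PCTAIRE kinase and cyclin Y genes tested, *Cdk16*, *Ccny* and *Ccnyl1*, none had an unadjusted p under 0.05, and their log2 fold changes were -0.12, 0.08 and -0.27.

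*Lta4h*, which encodes leukotriene A4 hydrolase, was the highest of the 9 genes, with 94.23 and 92.62 FPKM in the controls and 105.4 and 100.8 FPKM in Foxa1/2cKO. Its groups did not overlap, in the direction opposite to *Hal* next to it, but its log2 fold change of 0.14 (SE 0.08) gave an unadjusted p of 0.148 over all 4 samples and of 0.0191 without Foxa1/2cKO 2. *Alox5*, the enzyme before it in leukotriene synthesis, was listed at 0 in all samples. The leukotriene genes tested were *Lta4h*, *Alox5ap* and *Cysltr2*, and none had an unadjusted p under 0.05.

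*Metap2*, a methionine aminopeptidase that trims the first residue of new proteins, had 32.3, 32.9, 32.7 and 26.5 FPKM in control 1, control 2, Foxa1/2cKO 1 and Foxa1/2cKO 2. Only Foxa1/2cKO 2 was low, and the groups overlapped, with a log2 fold change of -0.14 (SE 0.13) and an unadjusted p of 0.306. Without Foxa1/2cKO 1 the unadjusted p was 0.00417 and the log2 fold change -0.29, and without Foxa1/2cKO 2 the log2 fold change was 0.0026. *Metap2* also shares 8.30% of the 50-base stretches of its longest transcript with other annotated genes, so part of its reads may be split.

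*Vezt*, which encodes the adherens junction protein vezatin, had 3.496, 3.73, 3.37 and 3.57 FPKM in the same order, and its groups overlapped (log2 fold change -0.04, SE 0.13). The orphan nuclear receptor gene *Nr2c1* had 4.56 and 4.72 FPKM in control and 4.38 and 4.07 in Foxa1/2cKO. Both Foxa1/2cKO samples were below both controls by a small margin, with a log2 fold change of -0.11 (SE 0.12) and an unadjusted p of 0.401. *Nedd1*, which brings the gamma-tubulin ring to the centrosome, had 11.1, 11.7, 13.1 and 10.3 FPKM. Its 2 Foxa1/2cKO samples lay on either side of the controls, and its log2 fold change of 0.02 (SE 0.14) changed sign under other scalings. *Nedd1* shares 7.29% of its 50-base stretches with other annotated genes.

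**Figure D4:**
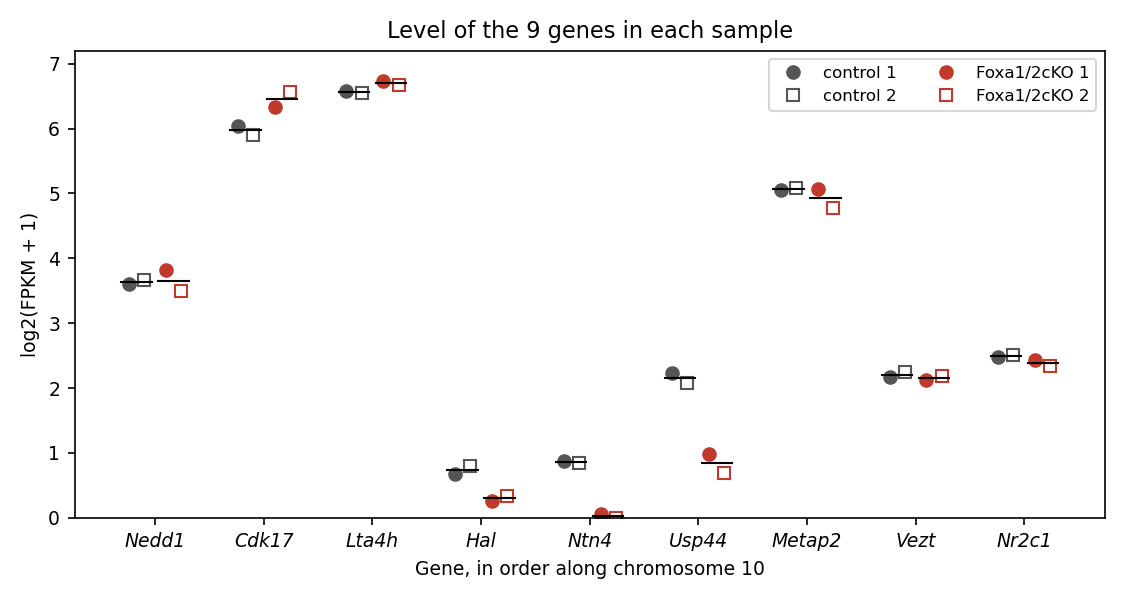
Level of the 9 genes on a log2(FPKM + 1) scale in each sample, in order along chromosome 10, with a line at each group mean. *Hal*, *Ntn4* and *Usp44* are lower in both red Foxa1/2cKO points, *Cdk17* and *Lta4h* are higher, and the groups of *Nedd1*, *Metap2* and *Vezt* overlap.

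By mean FPKM in control the order was *Lta4h* (93.4), *Cdk17* (62.1), *Metap2* (32.6), *Nedd1* (11.4), *Nr2c1* (4.64), *Vezt* (3.61), *Usp44* (3.47), *Ntn4* (0.813) and *Hal* (0.677). Of the neighbours in this order, only *Vezt* and *Usp44* had overlapping control samples. In Foxa1/2cKO the order was the same down to *Usp44* (0.799), which was then well below *Vezt* (3.47), and *Hal* (0.231) was above *Ntn4* (0.0192). The remaining tested genes, *Mir1931* inside *Cdk17*, with 2 reads in 1 sample of each group, and *Ndufa12*, a respiratory complex gene with a log2 fold change of -0.02, had overlapping groups. *Fgd6*, *Gm17745*, *Mir7688* and *Mir331* had overlapping groups below the filter, and *Mir331* was listed at 0 throughout.

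The stretches on either side of the window were read in the same fit. In the 5 Mb before the window 14 of 33 listed genes were tested, with a median log2 fold change of -0.06 and a range from -0.61 to 0.24. In the 5 Mb after it 12 of 32 were tested, with a median of 0.02. None of these genes had an unadjusted p under 0.05, and none of the genes with at least 10 reads in each control was 2-fold lower in both Foxa1/2cKO samples. On chromosome 10 outside the window 5.23% of 497 tested genes had an unadjusted p under 0.05, 10 of them lower and 16 higher.

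Most genes that act with *Usp44* passed the filter. Of the 23 spindle checkpoint and APC/C genes, all were tested and none had an unadjusted p under 0.05 (median log2 fold change -0.07). *Cdc20*, the *Usp44* substrate, had 52.1, 55.2, 55.8 and 25.6 FPKM, low only in Foxa1/2cKO 2. *Bub3* had 78.3, 79.3, 80.5 and 74.1 FPKM, and *Anapc5* 166.3, 164.6, 163.9 and 150.1 FPKM. Of the 12 other histone H2B ubiquitination genes tested, none had an unadjusted p under 0.05, including the deubiquitinase gene *Usp7* (log2 fold change 0.07) and the ligase gene *Rnf40* (log2 fold change 0.09). None of the 6 genes of the NCoR complex, with which Usp44 associates, and none of 5 genes of centrins and their nucleotide excision repair partners had one.

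Among the 56 listed *Usp* genes, a list drawn up after values were seen, *Usp44* ranked 40 by mean FPKM. Of the 42 others tested, 3 had an unadjusted p under 0.05, all higher (*Usp25*, *Usp38* and *Usp9x*), and none lower, with log2 fold changes from -0.24 to 0.31. The median of the 42 was 0.05. Over all genes tested 2.39% were higher and 2.15% lower at an unadjusted p under 0.05.

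The other netrin and laminin genes did not all follow *Ntn4*. *Ntn1*, the only netrin or netrin receptor gene that passed the filter, had 7.64 and 7.87 FPKM in control and 8.97 and 8.64 in Foxa1/2cKO (log2 fold change 0.16, SE 0.10, unadjusted p = 0.159). The receptor gene *Dcc* was listed at 0 and *Unc5a* had 5, 6, 3 and 2 reads. *Lamc1*, a laminin chain gene, had 3.80, 3.88, 3.82 and 5.06 FPKM, and *Lamb3* had 1.16, 0.831, 1.25 and 1.69 FPKM, neither with an unadjusted p under 0.05. Below the filter, *Lamb2* had 51, 44, 10 and 13 reads and *Lama5* had 57, 50, 21 and 17 reads. Both were named after their values were seen. They were lower in 2 of 2 Foxa1/2cKO samples, as were 17.8% of all genes tested, and the share below the filter was not computed. *Unc5a*, *Neo1*, *Adora2b* and *Unc5b* were lower in both too, from 6 reads or fewer in any sample. Apart from *Ntn4*, the other genes of these lists below the filter had overlapping groups, and *Ntn1* and *Lamb3* were higher in both. *Lamb2* is among the 30 genes at least 2-fold lower.

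Histidine breakdown was barely measured beyond *Hal*. *Uroc1* and *Ftcd*, which act after it, were listed at 0 in all samples, as was *Hnmt*. *Hdc*, which makes histamine from histidine, had 13, 6, 12 and 2 reads. The 2 genes tested, *Hars* and *Hars2*, encode histidyl-tRNA synthetases and had log2 fold changes of -0.08 and -0.06, with no unadjusted p under 0.05. The lists of the neighbours held no unadjusted p under 0.05 among 10 gamma-tubulin ring genes, 5 methionine aminopeptidase and N-myristoylation genes, 4 NR2C receptor genes and 5 adherens junction genes. *Tubg1* had 37.2, 38.1, 33.8 and 28.6 FPKM, *Nmt1* 71.5, 70.9, 65.2 and 74.1 FPKM, and *Nr2c2* 29.6, 28.8, 30.4 and 32.4 FPKM. The median log2 fold changes of these 4 lists were 0.004, -0.10, 0.01 and -0.01.

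The genes most like each of the 3 over the 4 samples were sought by distance between centred log2(FPKM + 1) values, among genes with 0.5 to 2 times the same mean FPKM. For *Hal* they were *4833417C18Rik*, *Lamb2* and *Apol9a*, from 1556 candidates, and *Lamb2* and *Apol9a* are on chromosomes 9 and 15. For *Usp44*, from 1926 candidates, they were *Mir1905*, *Mir7014* and *Cdc42ep4*, a Cdc42 effector gene with 226, 234, 89 and 84 reads. The first 2 of these rest on 6 reads or fewer in every sample. For *Ntn4*, from 1549 candidates, they were *Mir721*, *Mir1249* and *Mir3971*, each with 1 read in each control and 0 in Foxa1/2cKO. None of the 9 lies on chromosome 10.

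Markers of other cells and of cycling were read beside the 3 genes. The summed FPKM of the 5 cycling genes was 338.6, 356.1, 396.1 and 123.2 in control 1, control 2, Foxa1/2cKO 1 and Foxa1/2cKO 2, so it was highest in Foxa1/2cKO 1 and lowest in Foxa1/2cKO 2. *Usp44* was below both controls in both, and was also lower in Foxa1/2cKO 2 (0.615 FPKM) than in Foxa1/2cKO 1 (0.983 FPKM), and the part of cycling in its level was not tested. Mature SP genes summed to 289.0, 327.6, 326.4 and 196.3 FPKM. Fibroblast and mural genes, cells in which netrins and laminins are made, summed to 1.18, 1.10, 1.11 and 0.662 FPKM and none of the 5 passed the filter. *Col1a1* of that list had 26, 24, 5 and 13 reads and *Pdgfrb* 62, 48, 54 and 24. Endothelial genes summed to 50.4, 56.1, 57.2 and 62.5 FPKM, most of it *Pecam1* at 48.6, 55.2, 56.0 and 61.8 FPKM. In the same list *Egfl7* had 22, 14, 8 and 5 reads, *Cdh5* 32, 10, 18 and 11, *Kdr* 22, 7, 19 and 10 and *Tek* 2, 0, 1 and 0. Thymic epithelial genes summed to 6.52, 4.89, 7.61 and 5.52 FPKM, B cell genes to 75.6, 50.3, 103.5 and 54.0 FPKM and myeloid genes to 110.1, 87.2, 108.3 and 129.6 FPKM, with none of the genes tested at an unadjusted p under 0.05. The 4 globin genes of the erythroid list were at 0. Sorting for CD4, CD8 and CD69 would remove cells of these stromal types. The part of such cells in the values of *Ntn4*, *Hal* and *Lamb2* was not tested.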

How the data were processed

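RNA of 4 samples of CD69+DP thymocytes was sequenced, 2 control and 2 Foxa1/2cKO, grouped by their titles. The authors aligned reads in BaseSpace to UCSC mm10 with RefSeq genes (TopHat and Picard are in the submitters' processing notes), counted them with HTSeq in union mode and used DESeq2 for their own comparison. The deposited values are FPKM, and the step that made them is not given in the sources used here.

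Whole reads were recovered from the steps of the FPKM for 100% of the 16069 genes above 0 (a factor shared by all reads of 1 gene cannot be seen). Of the 60 genes used to set the total, 88.3% had a length whole to 0.004 bases. FPKM carry the totals the authors divided by, which were inferred as 10796528 to 14968316 per sample. Recovered reads exceeded this total in Foxa1/2cKO 2 (11252879 against 11093927) and were below it in each other sample. Intervals are exact 95% intervals of counting error, and 3 reads were taken as the limit of a count of 0. Positions are from GENCODE M21 (GRCm38).

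Genes that reached an FPKM of 1 in 2 or more samples were tested with limma 3.58.1 in R 4.3.3 on log2(FPKM + 1) with a mean-variance trend and Benjamini-Hochberg adjustment over all genes tested, at a threshold of 0.05. An exact permutation test of 2 against 2 samples cannot go below p = 0.333 (two-sided) and was not used. Each limma p-value sets the group difference against the spread between samples of a group, which limma moderates with that of other genes. Only these samples supply that spread. The fit was also run on simulated reads with a fixed spread that was not estimated from these samples. That run does not show how the fit performs here. The members and lists were chosen with earlier results of these data known. Named were the 9 genes, all listed genes of the window, at most 4 genes of each of 13 pathway lists by mean FPKM apart from exceptions named in the text, and the 3 genes most like each picked gene. Pathway list genes beyond 4 appear only where the text turns on them, chosen after their values were seen, as were the marker genes named singly. Alternatives were a pseudocount of 0.1, other filters, upper-quartile scaling, a replicate block, limma-voom on recovered reads, each sample left out and, chosen after seeing the data, scaling to all recovered reads. Figures were made with Python 3.11.15 and matplotlib 3.10.9. The result of 1 marker gene is not reported here.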

Additional observations from a re-analysis of the deposited data

How the results depend on the processing

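An adjusted p under 0.05 was reached by 1 of 10776 genes. The count was 0 with a pseudocount of 0.1, with no filter, with upper-quartile scaling, with limma-voom on recovered reads and with scaling to all recovered reads, and ran from 0 to 2695 when 1 sample was left out, the highest without Foxa1/2cKO 1 and 24 without Foxa1/2cKO 2. In those fits the lone sample is assumed to vary like the other group, so 2695 rests on the spread of the 2 controls. Of the window genes, 1 had an unadjusted p under 0.05. There were 3 with no filter, when *Gm8580* and *Gm15915* inside *Ntn4* joined *Cdk17*, and 0 to 3 when 1 sample was left out, 0 without either control, 3 without Foxa1/2cKO 1 and 2 without Foxa1/2cKO 2. *Cdk17* was higher under every alternative run, with log2 fold changes from 0.35 to 0.59.

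Signs near 0 changed. *Nedd1* had log2 fold changes of -0.039 with upper-quartile scaling and -0.0083 with scaling to all recovered reads, and ran from -0.13 without Foxa1/2cKO 1 to 0.18 without Foxa1/2cKO 2, with -0.012 without control 1. With 1 sample left out, *Snrpf* ran from -0.17 to 0.095 (0.070 without control 2), *Metap2* from -0.29 to 0.0026, *Ndufa12* from -0.12 to 0.072 and *Mir1931* from -0.49 to 0.77, and the highest value of each was the one without Foxa1/2cKO 2. The cause was not tested. The log2 difference of *Usp44* was -2.02 with a pseudocount of 0.1 and -2.14 with limma-voom, against -1.32, and ran from -1.47 to -1.17 when 1 sample was left out. Upper-quartile scaling moved the median of all genes by -0.06.

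Whether samples with the same replicate number were handled together is not stated in the sources used here. The deviations of same-numbered samples had a correlation of -0.06. It rests on 1 deviation per group and cannot show whether the samples were paired. With the number as a replicate block, 1 gene had an adjusted p under 0.05 and 378 an unadjusted one, against 490 without the block, and the count of window genes was still 1. With 2 samples per group, the 6 and 8 reads of *Hal* and the 1 and 0 reads of *Ntn4* in Foxa1/2cKO limit how precisely these differences are known.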
